A study of Mus musculus with 7 samples.

Results

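Integrins are the adhesion receptors by which blood cells hold on to matrix and to vessel walls. Reported here are the 10 integrin genes Itga2b, Itga4, Itga5, Itga6, Itga9, Itgal, Itgb1, Itgb2, Itgb3 and Itgb7, chosen by name as the rows of the deposited count table with these symbols. They are 6 alpha and 4 beta subunits among 54347 genes, each symbol matched 1 row, and all 10 passed the filter on low counts, as 15372 genes did. Each library holds RNA of LT-HSCs, the rare marrow stem cells that can rebuild blood for good, from 1 female mouse. All mice carried the strain label C57BL/6N-EMCN em1(IMPC)Wtsi /WtsiH. WT was Emcn+/+ (4 mice, called WT_284, WT_290, WT_310 and WT_312 after the mouse numbers in the labels) and served as littermate control, and KO was Emcn-/- (3 mice, KO_306, KO_314 and KO_320). Emcn encodes endomucin, a sialomucin of stem cells and endothelium, and the comparison asks what its loss changes in cells that must cross vessel walls. Cells were sorted from lineage-depleted leg bone marrow after staining for Sca-1, c-kit, CD150, CD48 and CD16/CD32. The lineage antibodies included Gr-1 and CD11b, the product of Itgam. No age is stated in the labels.

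An integrin at the cell surface is always a pair of 1 alpha and 1 beta chain, and the chain in short supply limits the pair. Talin and kindlin, called to the tail of the beta chain by the small GTPase Rap1, switch the pair to its binding form. In haematopoietic stem cells, alpha4beta1 (VLA-4, which binds VCAM-1 and fibronectin) is known for its part in homing to and staying in the marrow, alpha5beta1 binds fibronectin, and alpha6beta1 binds laminin. AlphaLbeta2 (LFA-1) binds ICAMs during passage through endothelium, alpha4beta7 binds MAdCAM-1, and alphaIIbbeta3 is the fibrinogen receptor of platelets and megakaryocytes.

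Library totals ran from 6444134 to 11101774 counts. Emcn itself had 130 to 327 counts in the WT libraries and 1, 0 and 0 in the KO libraries. All 16 stem cell markers examined had counts in every library. Their summed level was 2965 to 3463 CPM (the usual depth-scaled count, here with TMM factors) in 6 libraries and 2035 CPM in WT_284. WT_284 also stood apart in 20 neutrophil and monocyte markers, all of which were highest there. They summed to 15042 CPM in WT_284, to between 289 and 1329.8 CPM in the 3 remaining WT libraries, and to between 218 and 708 CPM in KO. Erythroid markers (4592 CPM there, 666 to 1478 CPM elsewhere) and B cell markers (95.5 CPM, 11.5 to 17.4 CPM elsewhere) were also highest there, as were the sums for multipotent progenitors, mast cells and basophils, T and NK cells and megakaryocytes, while those for stromal and endothelial cells were not. Results that rest on this library are therefore given with and without it.

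The beta1 chain can pair with alpha4 or alpha5 to form fibronectin receptors, and the start-site sequences of these 3 genes are shown. Promoter windows were found for 6 of the 10 members in RefSeq (GRCm38.p6), and Itga6, Itgal, Itgb2 and Itgb3 were not matched. The 3 windows below are those of the 6 that overlap no annotated exon. Each is the 250 bases before the RefSeq start, 5′ to 3′ on the gene's strand. They lie at chr2:79255176-79255425 (plus) for Itga4, chr15:103366792-103367041 (minus) for Itga5 and chr8:128685404-128685653 (plus) for Itgb1. Capitals mark GAGGAA, a core read by PU.1 and other ETS factors, and GGGCGG, a core read by Sp1 and KLF factors, or their reverse complements TTCCTC and CCGCCC.
Itga4: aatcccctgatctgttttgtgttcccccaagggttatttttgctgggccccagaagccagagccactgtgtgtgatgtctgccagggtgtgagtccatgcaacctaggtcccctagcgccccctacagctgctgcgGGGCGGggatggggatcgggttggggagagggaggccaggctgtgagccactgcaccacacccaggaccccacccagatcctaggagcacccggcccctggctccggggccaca
Itga5: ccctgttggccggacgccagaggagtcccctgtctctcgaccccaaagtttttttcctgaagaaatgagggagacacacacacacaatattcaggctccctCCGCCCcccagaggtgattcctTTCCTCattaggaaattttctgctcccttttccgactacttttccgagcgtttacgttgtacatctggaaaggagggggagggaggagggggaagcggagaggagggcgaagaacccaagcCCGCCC
Itgb1: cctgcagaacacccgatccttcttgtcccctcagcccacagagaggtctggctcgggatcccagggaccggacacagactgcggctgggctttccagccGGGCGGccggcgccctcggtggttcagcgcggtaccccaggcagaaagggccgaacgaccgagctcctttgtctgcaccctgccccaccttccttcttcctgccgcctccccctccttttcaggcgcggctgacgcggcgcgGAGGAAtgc
GGGCGG was present in Itga4, 114 bases before the start, in Itga5, 149 and 6 bases before, and in Itgb1, 151 bases before. Of 27025 promoter windows of this length, 32.9% held it on either strand. GAGGAA was present in Itga5, 127 bases before the start, and in Itgb1, 9 bases before, and 23.1% of all windows held it. AGATAA, a core of GATA factors, was in none of the 3 (10.3% of all windows). TGTGGT, a core of RUNX factors, was in Itga4 alone of the 3, 60 bases before the start and on the minus strand (14.2% of all windows). These are matches of letters only.

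Levels of different subunits were compared as CPM per kb of exon. By the median over 7 libraries, Itgb1 was highest at 55.5 CPM per kb, followed by Itga4 at 32.6, Itga6 at 20.3 and Itgb2 at 19.1. Itga2b followed at 13.7, Itgb3 at 12.3 and Itga5 at 12.0. Itgb7 at 2.96, Itga9 at 2.17 and Itgal at 1.84 CPM per kb were the lowest. By its mean over libraries Itgb1 lay above 96.1% of all tested genes per kb, and Itga9 above 26.3%. Itgb1 was above Itga4, and Itga4 above Itga6, in 7 of 7 libraries. By exon length Itga6 was above Itgb2 in the 3 KO libraries and below it in the 4 WT libraries. Itga2b was above Itgb3 in 4 of 7 libraries and Itgb3 above Itga5 in 4 of 7, so these neighbours do not differ beyond their spread. The remaining neighbours kept their order in 6 of 7. The length used matters most for Itga6, whose median was 42.5 CPM per kb with its longest annotated transcript. With that length Itga2b came before Itgb2, and Itga5 before Itgb3. Itga6 was then above Itgb2 in every library except WT_284, so their split by genotype depends on the length used. Itga6 was then also above Itga4 in WT_310 and KO_320.

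**Figure D1:**
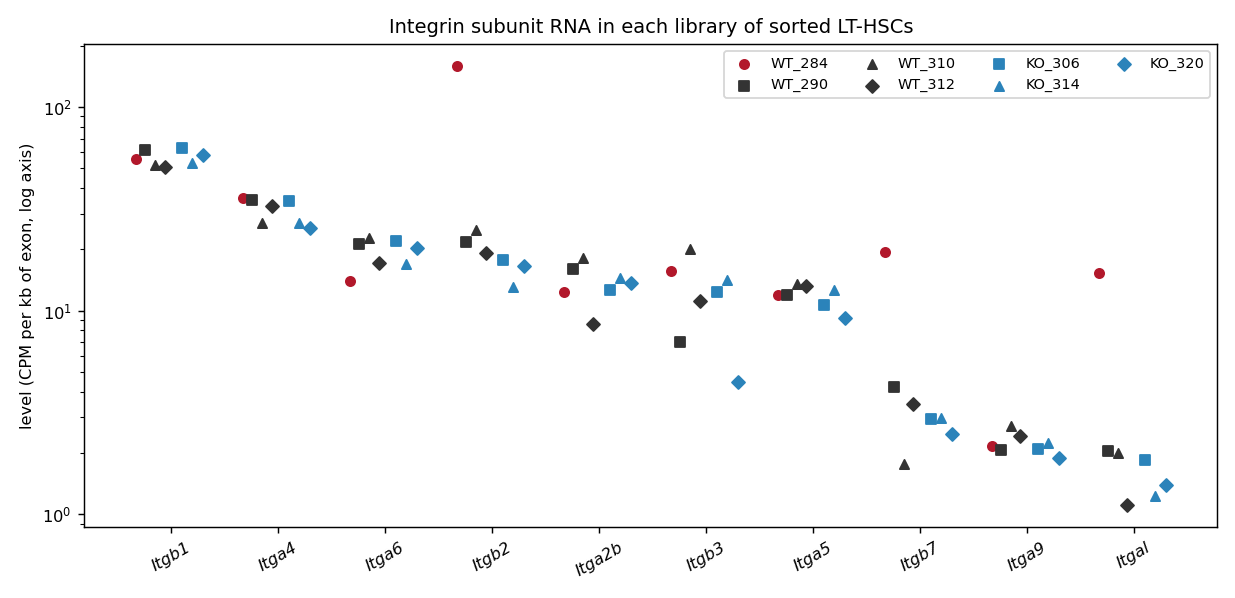
Level of each integrin subunit (CPM per kb of exon, log axis) in each library, WT at the left and KO at the right of each name. Itgb2, Itgb7 and Itgal have 1 point far above the rest, WT_284, at 159, 19.4 and 15.4 CPM per kb.

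No subunit passed between genotypes. Of the 10 members 0 had an adjusted p under 0.05 in edgeR's quasi-likelihood test with Benjamini-Hochberg adjustment, where 0.00651% of tested genes (1, Emcn) did. At an unadjusted p under 0.05 there were 0 members, against 3.27% of all genes, and the smallest unadjusted p in this edgeR fit was 0.114. Without WT_284 there were 0 members by adjusted p (0.0201% of genes) and 1, Itgb2, by unadjusted p (2.21% of genes). DESeq2 also called 0 members, where 13 of 29739 genes passed by adjusted p. At an unadjusted p under 0.05 it had 1 member (Itgb7) and 1039 of 29739 genes, and it gave no p for Itgb2 and Itgal. The p-values set the difference between the groups against the spread between these mice, which was estimated partly over all genes. The log2 fold change (KO minus WT) was negative for 8 members and positive for 2, and 52.4% of all genes were negative. The median over the members was -0.20, or -0.19 without WT_284, against -0.02 and 0.00 over all genes. WT and KO libraries did not overlap for 1 member, Itgb2, where 4.86% of all genes did not overlap. For 6 of the 10 members (Itgb1, Itga4, Itga5, Itga6, Itga2b and Itga9) the 95% interval of the difference stayed within 2-fold either way, as it did for 49.6% of genes.

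**Figure D2:**
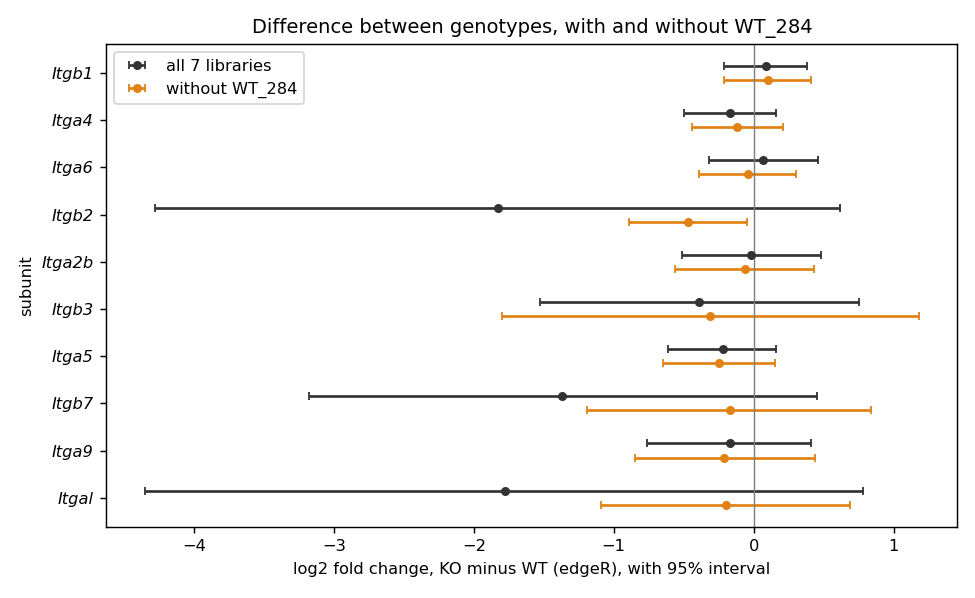
Difference between KO and WT for each subunit (log2 fold change with 95% interval, edgeR) with all 7 libraries and without WT_284. Every interval from all 7 libraries spans 0. Those of Itgb2, Itgal and Itgb7 reach from -4.28, -4.35 and -3.18 up to 0.62, 0.78 and 0.45, and all 3 move towards 0 without WT_284.

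The beta1 chain, the shared partner of 4 of the alpha chains described here, was the steadiest member. Itgb1 (ENSMUSG00000025809.15, chr8:128685654-128733200, plus strand, GRCm38) stood at 227, 249.8, 212 and 206 CPM in WT_284, WT_290, WT_310 and WT_312, and at 257, 218 and 238 CPM in KO_306, KO_314 and KO_320. The groups overlapped, and the highest library was 1.25 times the lowest. Only 2.85% of the 9896 genes with a mean of at least 10 CPM had a smaller ratio. WT averaged 224 ± 19.4 CPM (SD, n = 4) against 238 ± 19.8 CPM (SD, n = 3) for KO. The log2 fold change was 0.09 (95% interval -0.21 to 0.38).

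Itga4 (ENSMUSG00000027009.18, chr2:79255426-79333123, plus strand), the alpha chain of VLA-4, had the highest CPM of the 10 members in every library, not corrected for length. It stood at 502, 487, 379 and 456 CPM in WT_284, WT_290, WT_310 and WT_312 and at 480.3, 378 and 357 CPM in KO_306, KO_314 and KO_320. The groups overlapped: KO_306 was among the high WT values, and KO_314 and KO_320 were below the lowest. KO minus WT was -0.17 ± 0.15 (SE) on the log2 scale. Cerkl, a gene on the other strand that overlaps Itga4, held 489 counts over all libraries, against 2479 or more of Itga4 in each.

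Itga6 (chr2:71745616-71858416, plus strand), the laminin receptor chain, was the member with its lowest value in WT_284. It stood at 127, 191, 205 and 156 CPM in WT_284, WT_290, WT_310 and WT_312 and at 198, 152 and 183 CPM in KO_306, KO_314 and KO_320. The groups overlapped, and the log2 fold change of 0.07 (-0.32 to 0.46) turned to -0.04 (-0.39 to 0.30) without WT_284. The A and B forms of alpha6, which differ in the tail, are not told apart in gene counts.

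Itga5 (ENSMUSG00000000555.8, chr15:103344286-103366763, minus strand), the classical fibronectin receptor chain, lay between 58.5 and 66.8 CPM in WT and between 45.6 and 62.2 CPM in KO. KO_306 and KO_320 were the lowest libraries of all, and KO_314 lay inside the WT range. On the log2 scale KO minus WT was -0.22 ± 0.18 (SE). Itga9 (ENSMUSG00000039115.13, chr9:118606690-118901003, plus strand), whose pair with beta1 binds tenascin C and osteopontin, lay between 16.0 and 20.9 CPM in WT and between 14.6 and 17.1 CPM in KO (log2 fold change -0.17 ± 0.27, SE). Gm10157 and Gm2415, which lie on the other strand within Itga9, held 202 and 101 counts over all libraries. As the counting strand is not given, reads of these and of Itga9 may not be told apart.

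The beta2 and beta7 chains and alphaL behaved otherwise, with 1 WT library far above all others. Itgb2 (ENSMUSG00000000290.13, chr10:77530252-77565708, plus strand), the beta chain of the leukocyte integrins, stood at 484, 66.2, 76.4 and 58.4 CPM in WT_284, WT_290, WT_310 and WT_312 and at 53.9, 40.0 and 50.7 CPM in KO_306, KO_314 and KO_320. Every KO library lay below every WT library, also apart from WT_284. KO was lower without overlap for 2.43% of all genes, or 3.62% when WT_284 is set aside. WT averaged 171 ± 209 CPM (SD, n = 4) against 48.2 ± 7.30 CPM (SD, n = 3) for KO. The log2 fold change was -1.83 (-4.28 to 0.62), and without WT_284 it was -0.47 (-0.89 to -0.05), with an unadjusted p of 0.0301 and an adjusted p of 0.999 in edgeR. There the mean of the 3 remaining WT libraries was 67.0 ± 9.02 CPM. In bulk samples fewer cells of a type and less RNA per cell cannot be told apart.

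Itgal (ENSMUSG00000030830.18, chr7:127296260-127335138, plus strand), the alpha chain of LFA-1, stood at 101, 13.4, 13.1 and 7.32 CPM in WT_284, WT_290, WT_310 and WT_312 and at 12.1, 8.05 and 9.17 CPM in KO_306, KO_314 and KO_320. Apart from WT_284 the groups overlapped, and WT_312 was the lowest library of all. The log2 fold change was -1.78 (-4.35 to 0.78), and it was -0.20 (-1.09 to 0.69) without WT_284.

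Itgb7 (ENSMUSG00000001281.10, chr15:102215995-102231944, minus strand), the beta chain of the gut-homing receptor, stood at 53.7, 11.7, 4.89 and 9.63 CPM in WT_284, WT_290, WT_310 and WT_312 and at 8.18, 8.20 and 6.88 CPM in KO_306, KO_314 and KO_320. WT held both the highest and the lowest value, so the KO libraries lay inside its range. The lowest, WT_310, rested on 32 counts, with an exact Poisson interval at 95% from 3.35 to 6.90 CPM for counting error only. The log2 fold change was -1.37 (-3.18 to 0.45), and it was -0.17 (-1.19 to 0.84) without WT_284.

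WT_284 held 7.23 times the mean of the other WT libraries for Itgb2, 8.94 times for Itgal and 6.14 times for Itgb7. Among genes with a mean of at least 10 CPM, 2.14% were at least 4 times higher there. In the same library Itgb1 was at 1.02 times and Itga6 at 0.688 times the mean of the other WT libraries. Markers of neutrophils and monocytes were also high in WT_284, as were those of erythroid cells, B cells and other types named above. The 20 marker genes together were 15.4 times higher in WT_284 than in the mean of the other WT libraries, with S100a9, a calcium-binding protein of neutrophils, at 3497 CPM and Ltf, the granule protein lactoferrin, at 2775 CPM. The defining markers were not at 0 in KO_306, while 5 of the 20 were at 0 in KO_314, 4 in KO_320 and 1 in WT_312. Pairing each WT with each KO library, the neutrophil and monocyte marker level was higher for WT in 11 of 12 pairs, so this level and genotype are partly confounded. With that level as a covariate the log2 fold changes were 0.31 (-0.74 to 1.36) for Itgb2, 0.92 (0.07 to 1.77) for Itgal and 0.34 (-0.87 to 1.55) for Itgb7, each with an adjusted p of 0.992 in edgeR. The part of neutrophils, monocytes or other cells in the level of these genes was not tested further.

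In the 6 libraries other than WT_284 the summed markers spread 6.11-fold, Itgb2 spread 1.91-fold, Itgal 1.83-fold, Itgb7 2.39-fold and Itgam 5.82-fold. The marker sums were 218 CPM in KO_320, 223 in KO_314, 289 in WT_312, 708 in KO_306, 1318 in WT_290 and 1329.8 in WT_310. In that order Itgb2 stood at 50.7, 40.0, 58.4, 53.9, 66.2 and 76.4 CPM. Itgb7 was lowest, at 4.89 CPM, in WT_310.

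**Figure D3:**
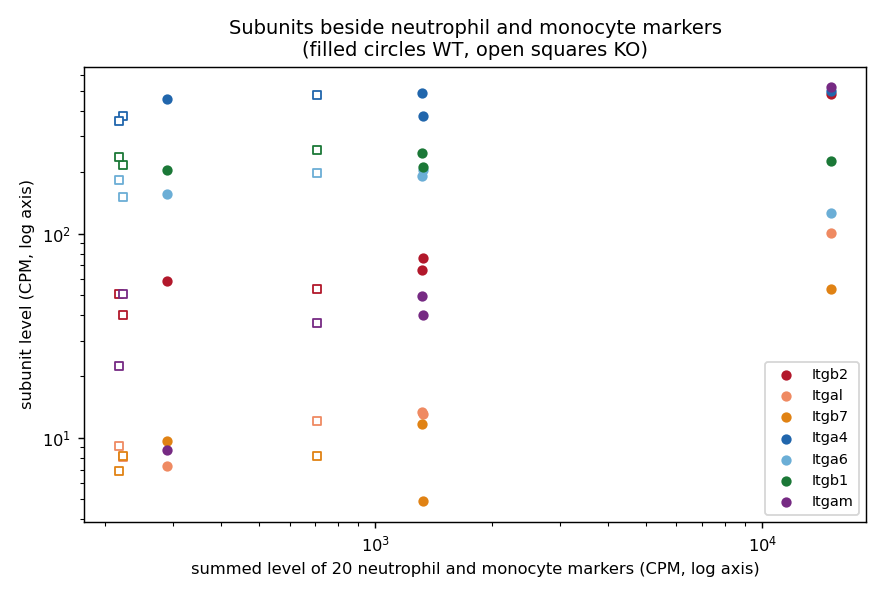
Level of 6 subunits and of Itgam (CPM, log axis) against the summed level of 20 neutrophil and monocyte markers (CPM, log axis), 1 point per library, filled circles for WT and open squares for KO. The point at the right is WT_284 (15042 CPM of markers), where Itgb2, Itgal, Itgb7 and Itgam are highest and Itga6 is lowest.

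The platelet receptor chains were both present at a level close to that of Itga5. Itga2b (ENSMUSG00000034664.13, chr11:102453297-102470122, minus strand), which encodes CD41, stood at 67.4, 87.4, 98.6 and 47.0 CPM in WT_284, WT_290, WT_310 and WT_312 and at 69.1, 78.9 and 74.8 CPM in KO_306, KO_314 and KO_320. All KO values lay inside the WT range, and the log2 fold change was -0.02 (-0.51 to 0.48). Itgb3 (ENSMUSG00000020689.4, chr11:104608000-104670476, plus strand), its partner, stood at 92.5, 41.4, 119 and 66.1 CPM in WT_284, WT_290, WT_310 and WT_312 and at 72.3, 83.4 and 26.5 CPM in KO_306, KO_314 and KO_320. KO_320 and WT_290 were low and WT_310 was high, so the spread was within both genotypes. The highest library was 4.50 times the lowest (4 of the 10 members and 7.47% of genes of at least 10 CPM had a ratio of 4 or more, and without WT_284 these were 1, Itgb3, and 4.46%). Its difference between genotypes was -0.39 (-1.53 to 0.75) on the log2 scale.

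Markers of megakaryocytes and platelets were read beside this pair. Their 14 genes summed to 268 to 355 CPM in WT and 258 to 286 CPM in KO, mostly Nbeal2, a granule trafficking protein, at 149 to 274 CPM. KO_320 and WT_310 were compared because Itgb3 was lowest and highest there. Of the 14, 12 were lower in KO_320, and the share of all genes lower there was not counted. Some of the 12, such as Ppbp and Mpig6b, were at or near 0 in most libraries but not in WT_310. Ppbp stood at 16.0 CPM there (at most 0.603 CPM elsewhere) and Gp6 at 13.0 CPM (at most 1.93 CPM). Clec1b stood at 7.64 CPM (at most 1.33 CPM elsewhere) and Mpig6b at 4.43 CPM (0 elsewhere). Not all markers were highest in WT_310: Nbeal2 was highest in WT_284, and Pf4 and Gp9 in KO_320. Among the 4 most abundant, Nbeal2, Rab27b and Gp1ba were lower in KO_320 than in WT_310. Pf4, platelet factor 4, was higher, at 27.9 CPM in KO_320 and 23.4 CPM in WT_310, as was Gp9, at 18.8 and 5.35 CPM. The part of such cells in the level of Itgb3 was not tested.

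RNA of both chains was present for all 7 known pairs, although RNA does not show that a pair is made. Taken 1 pair at a time, the alpha chain of the beta1 pairs was the scarcer one in every library. Itgb1 is shared by these alpha chains, and their combined level was not set against it. Which chain limits the beta1 pairs can therefore not be read from these ratios. The ratio of alpha to beta per kb was 0.438 to 0.647 for Itga4 to Itgb1, 0.252 to 0.438 for Itga6, 0.158 to 0.262 for Itga5 and 0.0326 to 0.0523 for Itga9. With the longest transcript as length the Itga6 ratio was 0.494 to 0.856. By exon length Itga4 with Itgb1 was thus the pair whose scarcer chain was most abundant, at 32.6 ± 3.93 CPM per kb (SD, n = 4) in WT and 29.0 ± 4.70 CPM per kb (SD, n = 3) in KO. With the longest transcript Itga6 exceeded Itga4 in WT_310 and KO_320. Apart from WT_284, the scarcer chain was Itgal in LFA-1, at 1.11 to 2.04 CPM per kb, and Itgb7 in alpha4beta7, at 1.77 to 4.23 CPM per kb.

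The balance within 2 pairs set libraries apart. Itgal stayed at 0.0582 to 0.104 of Itgb2 in all 7 libraries, WT_284 included at 0.0968, so the ratio of the LFA-1 chains in WT_284 lay inside the range of the others. Itga4 was 1.85 times Itgb7 in WT_284 and 8.24 to 15.4 times Itgb7 in the others. Itga2b was 2.29 times Itgb3 in WT_290 and 3.05 times in KO_320, and 0.769 to 1.03 times Itgb3 in the other 5. No pair separated WT from KO.

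**Figure D4:**
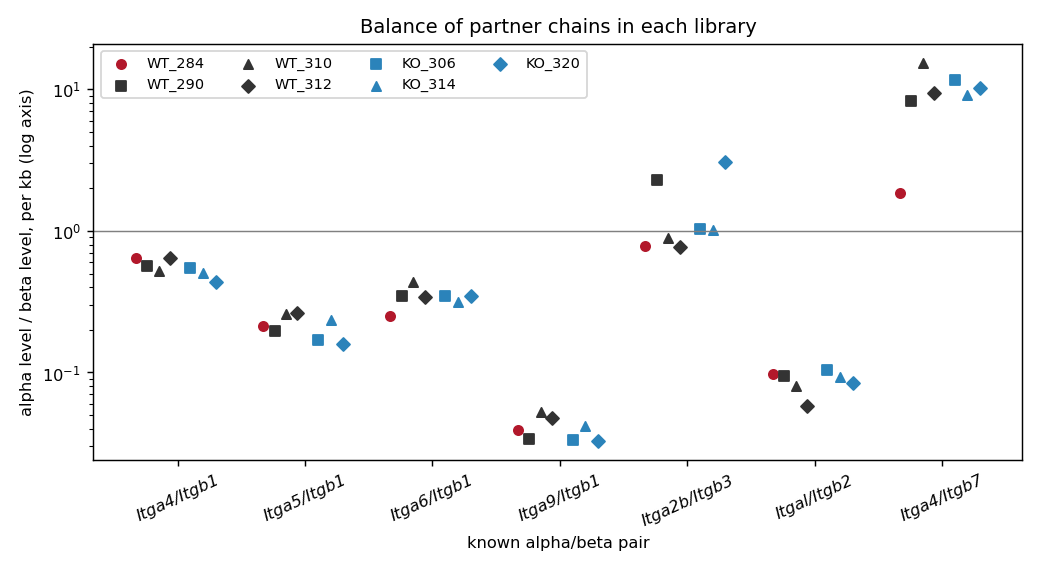
Ratio of the alpha to the beta chain (levels per kb of exon, log axis) for 7 known pairs in each library, with a line at 1. The 4 beta1 pairs and Itgal to Itgb2 lie below 1 in every library, Itga4 to Itgb7 lies above 1, and WT_284 is the low point of Itga4 to Itgb7 at 1.85.

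The make-up of each chain class was taken over the 10 members and 17 other integrin genes. Itgb1 made up 50.6% to 69.3% of beta chain RNA per kb and Itgb2 15.5% to 24.4% in 6 libraries, and in WT_284 they made up 19.5% and 55.7%. The share of Itgb1 was 63.2% to 69.3% in KO and at most 62.2% in WT, and that of Itgb2 was 15.5% to 19.7% in KO and at least 21.7% in WT. These shares are not independent of the level of Itgb2 given above. The level of Itgb1 itself did not separate the groups, at 206 to 249.8 CPM in WT and 218 to 257 CPM in KO. Among alpha chains Itga4 took 26.5% to 39.3% in 6 libraries and 17.5% in WT_284, where Itgam, the alphaM chain of the myeloid receptor Mac-1, took 50.4%.

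**Figure D5:**
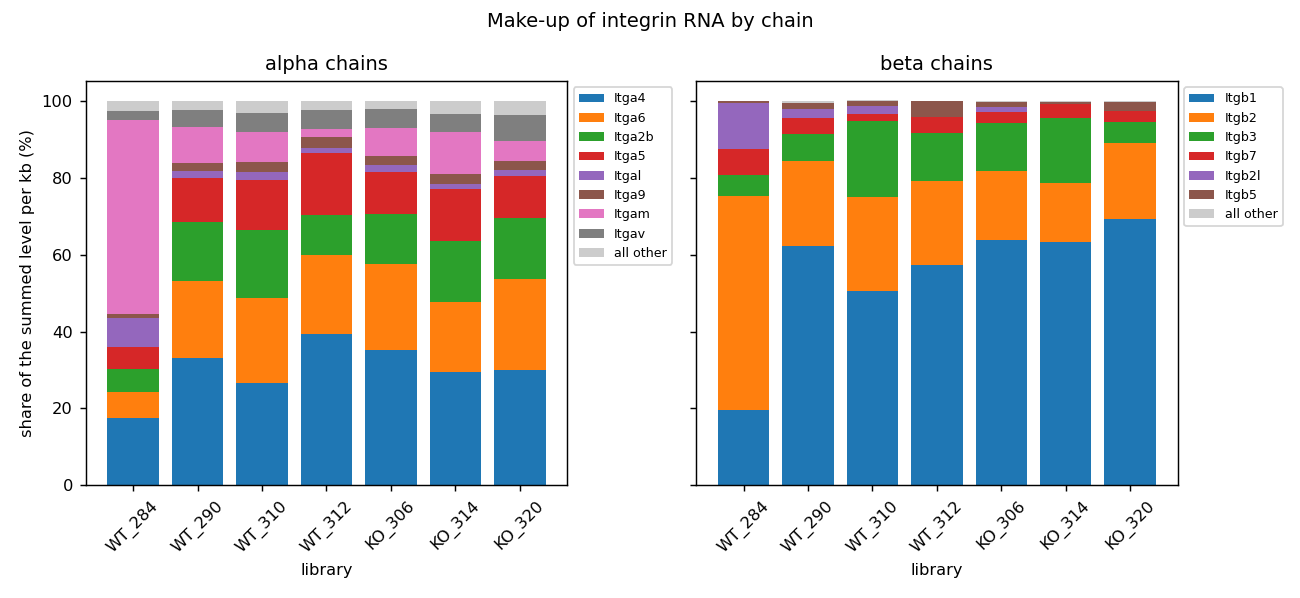
Share of each subunit in the summed level per kb of all alpha chains (left) and all beta chains (right), in percent, for each library. WT_284 differs from the other 6 by the Itgam and Itgb2 blocks, at 50.4% and 55.7%.

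Of 17 other integrin genes, 8 were tested, 4 with positive and 4 with negative log2 fold changes, and 0 passed in either direction in edgeR, with 0 at an unadjusted p under 0.05. Their median log2 fold change was -0.08, and without WT_284 it was 0.08, with 5 positive and 3 negative. Itgav, whose pairs with beta3 and beta5 bind vitronectin, lay at 43.5 to 54.1 CPM in WT and 45.5 to 63.2 CPM in KO (log2 fold change 0.09, 95% interval -0.32 to 0.50). It is the other partner of beta3 and was present in every library. Itgam stood at 521, 49.7, 39.9 and 8.73 CPM in WT_284, WT_290, WT_310 and WT_312 and at 36.5, 50.9 and 22.5 CPM in KO_306, KO_314 and KO_320, with a log2 fold change of -2.08 that was 0.16 without WT_284. Itgb2l, a close relative of Itgb2, stood at 146 CPM in WT_284, 0.128 to 10.2 CPM in the 3 remaining WT libraries and 0 to 4.99 CPM in KO (log2 fold change -4.48, or -1.90 without WT_284). Among collagen, laminin and vitronectin receptor chains, Itga2 lay at 4.49 to 14.4 CPM, Itga3 at 1.79 to 4.49 CPM and Itgb5 at 1.79 to 13.2 CPM over the 7 libraries. Itga10 and Itgb4 had means of 1.12 and 1.26 CPM.

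The machinery that switches integrins on was present in both genotypes. Of 24 genes for talins, kindlins, Rap1 and their regulators 21 were tested, 6 positive and 15 negative, and 0 passed in either direction in edgeR (1 at an unadjusted p under 0.05), with a median log2 fold change of -0.17. Without WT_284 they were 9 positive and 12 negative, with a median of -0.07, where the median of all genes was 0.00. Their 4 smallest unadjusted p were those of Itgb1bp1, Fyb, Cytip and Rasgrp2. Itgb1bp1, which encodes ICAP-1, a protein that binds the beta1 tail and competes with talin, stood at 13.1, 13.1, 11.8 and 8.22 CPM in WT and at 15.4, 26.7 and 15.7 CPM in KO. The lowest KO value exceeded the highest WT value, which also holds for 2.43% of all genes. The log2 fold change was 0.73 ± 0.33 (SE), or 0.80 without WT_284 (adjusted p 0.992 and 0.999 in edgeR). Rasgrp2, the exchange factor of Rap1, had a log2 fold change of -0.52 ± 0.29 (SE), the adaptor Fyb -0.41 ± 0.21 and the cytohesin partner Cytip -0.57 ± 0.31. These 3 were highest in WT_284 and had -0.31, -0.19 and -0.19 without it.

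Of 34 genes of the adhesion complex and of signalling behind it 31 were tested, 4 positive and 27 negative, and 0 passed in edgeR (1 at an unadjusted p under 0.05), with a median of -0.26. Without WT_284 they were 6 positive and 25 negative, with a median of -0.08. Parvb, Lyn and Fgr were among those with the smallest unadjusted p. Parvb, which encodes the actin-linking beta-parvin, stood at 19.8, 8.03, 13.3 and 4.37 CPM in WT and at 4.48, 4.77 and 2.29 CPM in KO, so the groups overlapped. Its log2 fold change was -1.56 ± 0.56 (SE), or -1.15 without WT_284. Fgr, a Src family kinase that signals from beta2 integrins in myeloid cells, stood at 100.5 CPM in WT_284 and at most at 8.60 CPM in any other library. Lyn, a kinase of the same family, was at 176 CPM there, 87.3 to 90.0 CPM in the 3 remaining WT libraries and 70.0 to 81.3 CPM in KO (log2 fold change -0.54, or -0.22 without WT_284).

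Of 31 genes for ligands and tetraspanin partners 20 were tested, 8 positive and 12 negative, and 0 passed in edgeR (0 at an unadjusted p under 0.05), with a median of -0.16 (-0.13 without WT_284). Fn1, fibronectin, was at 465 CPM in WT_284, 19.6 to 35.3 CPM in the 3 remaining WT libraries and 10.2 to 28.9 CPM in KO (log2 fold change -2.84, or -0.45 without WT_284). Icam2, a ligand of LFA-1, had -0.55 ± 0.39 (SE), or -0.71 without WT_284. Vcam1, the ligand of VLA-4, had -0.61 ± 0.53 (SE) at 2.67 to 14.9 CPM, or -0.37 without WT_284. Svep1, a matrix protein that binds alpha9beta1, had -0.97 ± 0.72 (SE), or -1.27 without WT_284.

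For the 4 members whose highest library was at least 4 times the lowest, the genes with the most similar pattern over the 7 libraries were looked up among 9886 genes of at least 10 CPM, by the mean absolute difference of centred log2 CPM. Closest to Itgb2 were Mxd1 (0.13), Anxa2 (0.13) and Anxa1 (0.14), and closest to Itgal were Mxd1 (0.14), Anxa1 (0.16) and Nhsl2 (0.16). Both were thus matched by Mxd1, which encodes a partner of MAX, at 420.4 CPM in WT_284 and 43.4 to 63.0 CPM elsewhere. Closest to Itgb7 were Arap3 (0.16), Dhrs7 (0.19) and Apobr (0.26). Closest to Itgb3 were Gch1 (0.18), Pidd1 (0.21) and Timm8b (0.23). Gch1, which starts tetrahydrobiopterin synthesis, was also lowest in KO_320, at 11.3 CPM against 22.5 to 37.8 CPM elsewhere.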

How the data were processed

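Values are gene-level estimated counts that the authors deposited as whole numbers without scaling, made with cutadapt and Salmon per the submitters' processing notes. The labels name a stranded total RNA kit but call the molecule polyA RNA, and no source read here states the annotation or the counting strand. Each of the 7 columns carries the name of 1 mouse. GENCODE M21 (GRCm38) gave positions and lengths (98.1% of 54347 identifiers had the same version, Itga6 a different one). Members and lists were chosen with earlier results of these data known.

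Counts were fitted with R 4.3.3 and edgeR 4.0.16 (low counts filtered by filterByExpr, TMM scaling, robust quasi-likelihood, KO minus WT, no covariate, as the labels name no pair or batch). Named genes are the members, other subunits of at least 1 CPM on average, the 4 smallest p of each pathway list, up to 4 markers of each cell type by level, and the 3 genes most like each member whose highest library is at least 4 times its lowest. Alternatives were DESeq2 1.42.0, limma-voom (limma 3.58.1), other scaling and filters, a myeloid covariate, mice above 300 and each mouse left out. The fit was tested on simulated data. Planned protein tails are not described here, and 1 gene that the rule names is not reported here. Intervals of counts cover counting error only.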

Additional observations from a re-analysis of the deposited data

Results flagged for a closer look

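WT_284 was far above the other 3 WT libraries for several genes, with a gap to the next library of more than 0.829 of the range of the group. About 1 of 20 groups of normally distributed values pass that limit when a single group is looked at. The rule was applied to several genes, marker sums and ratios, and the share of all genes that pass it is not given. The genes so flagged were, among the members, Itgb2 at 484 CPM (others 58.4 to 76.4), Itgal at 101 CPM (7.32 to 13.4) and Itgb7 at 53.7 CPM (4.89 to 11.7). Among other subunits they were Itgam at 521 CPM, Itgb2l at 146 CPM, Itga1, a collagen receptor chain, at 25.2 CPM (others at most 1.51) and Itgax at 5.33 CPM (others at most 0.899). The same library stood apart in the sum of neutrophil and monocyte markers, 15042 CPM, and of B cell markers, 95.5 CPM compared with 12.1 to 17.4 CPM for the remaining WT mice and 11.5 to 16.0 CPM for KO.

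WT_290 was set apart by the ratio of Itga2b to Itgb3 per kb, 2.29 against 0.769 to 0.895 in the other WT libraries. KO_320 had a higher ratio still, 3.05.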

How the results depend on the processing

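In every setting run 0 members passed, and 1 member did not overlap with TMM, RLE factors or plain library totals alike. At an unadjusted p under 0.05 the fit reported had 0 members, and no setting had more than 1. In edgeR it was Itgb7 with no filter (1779 of 29739 genes) and without WT_310 (495 of 15209), and Itgb2 without WT_284 (329 of 14897). It was also Itgb2 in the fit that was not robust (655 of 15372) and Itgal with the myeloid covariate (551 of 15372). Tested genes passing numbered 1 in the fit reported, 13 in DESeq2, 81 with no filter, 0 in limma-voom with quality weights (469 at an unadjusted p under 0.05), 7 with mice above 300 and 1 to 3 when a mouse was left out (3 without WT_284 or KO_306, 2 without WT_290 or KO_314). DESeq2 gave no p for Itgb2 and Itgal. With the myeloid covariate the sign turned for Itga2b (0.11), Itga6 (-0.05), Itgal (0.92), Itgb2 (0.31) and Itgb7 (0.34). With mice above 300 it turned for Itga2b (0.03), Itga6 (-0.01) and Itgb7 (0.10), and limma-voom gave -0.01 for Itga6. With a mouse left out Itga2b ranged from -0.17 to 0.14 and Itga6 from -0.04 to 0.18. The cause was not tested. Without WT_284, a setting chosen for the gene lists after seeing the data, the median of the other subunits was 0.08, of the activation genes -0.07 and of the adhesion complex -0.08. Itgb3 was -0.02 without KO_320. Itgb1, Itga4, Itga5, Itga9 and Itgb3 kept their direction in every setting run. With a mouse left out the values ranged from -2.10 to -0.47 for Itgb2, -2.08 to -0.20 for Itgal and -1.68 to -0.17 for Itgb7. No paired analysis was possible because the labels give no litter or other pair, and a mouse number names 1 animal. The 3 KO and 4 WT mice limit what can be seen: the intervals of Itgb2, Itgal, Itgb7 and Itgb3 exceed 2-fold.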

Other observations

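Itgam RNA was not lowest where the neutrophil and monocyte markers were. KO_314 held 50.9 CPM of Itgam and WT_290 held 49.7 CPM, whereas Ltf stood at 6.71 CPM in KO_314 and at 182 CPM in WT_290, and Ngp at 4.47 and 229 CPM. Of the 20 markers 18 were lower in KO_314 than in WT_290, and the other two, Ctss (18.9 and 14.7 CPM) and Csf1r (3.28 and 2.93 CPM), were higher. WT_312, with 8.73 CPM of Itgam, had 14.0 CPM of Ltf.

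Itgae, the alphaE chain that pairs with beta7, was at 4.03 CPM in KO_314 (others at most 1.42), and it did not pass the filter on low counts. Itgae was chosen for mention after its values were seen.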
